A study of Mus musculus with 6 samples.

Results

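Mitosis genes were studied in RNA from the mouse colon, as 47 genes chosen by symbol among the 23282 genes of the deposited count table. They comprise the cyclins and kinases that start mitosis, the factors that transcribe mitotic genes, and proteins of the kinetochore, spindle, chromosomes and cytokinesis. All 47 were found in the table and all 47 passed the filter on low counts that left 16586 genes for testing. The series compared 8-week-old wild-type C57BL/6J mice in 2 groups, to look for genes controlled by the pregnane X receptor (PXR), the nuclear receptor that senses drugs and other foreign compounds. The PCN group received 40 mg/kg of PCN (prenenolone-16a-carbonitrile in the labels), a steroid that activates rodent PXR, by 3 intraperitoneal injections at intervals of 8 h. The other group, labelled Veh and given as control, is the vehicle group, the carrier of PCN being DMSO and corn oil. Colon tissue was taken 8 h after the last injection. There were 3 libraries in each group, replicates 3, 5 and 6 for vehicle and replicates 4, 5 and 6 for PCN. The labels do not say whether each library came from a separate mouse, so p-values rest on the spread from library to library, which may be technical.

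In the colon, dividing cells lie in the lower part of the crypts, where the progeny of stem cells divide before they mature and move to the surface. Entry into mitosis is driven by the kinase CDK1 bound to cyclin B, and the exit by the anaphase-promoting complex (APC/C), a ubiquitin ligase that marks cyclins and securin for destruction. Genes of mitosis are transcribed late in the cell cycle through the MuvB complex together with B-MYB and FOXM1, which act at a DNA element known as the cell cycle genes homology region (CHR), often with CCAAT boxes upstream. In whole tissue, fewer cells of a type and less RNA per cell cannot be told apart.

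The libraries held 21924026 to 25422856 counts, with 20538 to 20963 genes detected and 5.43 to 6.25% of counts on mitochondrial genes. Between libraries of a group the correlation of log2 levels over genes was 0.97 to 0.98, and no pair agreed within sampling noise. The tissue label was met by epithelial markers, with Epcam at 1207 to 1425 CPM (counts scaled to a common library total) in the 6 libraries. The 8 genes listed as responding to PXR summed to 2207 to 3982 CPM in the vehicle libraries and 7155 to 8769 CPM in the PCN libraries. PCN replicate 5 had the highest of these sums, largely through Cyp2c55, at 5017 CPM there. The log2 fold change of Cyp2c55 was 1.56 by edgeR (adjusted p = 0.19 by edgeR and 6.8e-06 by DESeq2). B3galt5, Akr1b7 and Cyp3a44 had the smallest p of the 8, with log2 fold changes of 1.55, 2.18 and 3.41 (adjusted p = 0.026, 0.046 and 0.063 by edgeR). The authors reported Cyp2c55 and B3galt5 as raised in RNA sequencing of colon after PCN. The 8 genes were listed with earlier results of these data known, so their rise is no independent check of the treatment. By the edgeR quasi-likelihood test with Benjamini-Hochberg adjustment, 5 genes were higher and 1 was lower after PCN, 0.0301% and 0.00603% of the genes tested. There were 0 such calls without vehicle replicate 6 or without any single PCN library, and 24 without vehicle replicate 3. DESeq2 made 214 calls.

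The promoters of the mitosis genes shared the letters of the CHR and the CCAAT box. Promoters were taken from RefSeq on GRCm38.p6, from 250 bases before to 50 bases after the annotated start, and 38 of the 47 genes matched, with 41 promoters. The letters searched were TTTGAA or TTCGAA for the CHR and CCAAT for the CCAAT box, each on both strands. A CHR was in 33 of the 41 promoters, 80.5%, against 19.2% of all 32851 promoters of the same length. A CCAAT box was in 32 of the 41, 78.0%, against 37.4% of all promoters. Both occurred in 73.2% of the mitosis promoters and in 7.52% of all. Among the 44 CHR matches, 29 lay between 40 bases before and 50 bases after the start. Sites in overlapping promoters of the same gene, as in Ect2, Prc1 and Bub3, were counted for each promoter. No share of matches in this window is given for all promoters, so the count cannot show whether that position is particular to mitosis genes. Of the lists compared with them further on, a CHR was in 56.9% of promoters for other mitosis genes (65 of 80 matched) and 17.0% for DNA replication genes (39 of 48 matched). It was in 16.7% for G1 cyclins and E2F factors (13 of 18 matched), in 16.7% for APC/C subunits (15 of 16 matched) and in 3 of 5 promoters of the MuvB core (4 of 5 genes matched). A match of letters is a description of the sequence and not a site of binding.

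The sequences below are shown because they carry these letters in members described in the results. They are printed from 5′ to 3′ on the strand of the gene, and capitals mark the letters of a CHR or a CCAAT box on either strand. The first 4 hold the 120 bases before the annotated start. They lie at chr19:37376262-37376381 on the plus strand (Kif11), chr11:99024190-99024309 on the minus strand (Top2a), chr5:45669805-45669924 on the plus strand (Ncapg) and chr10:69352913-69353032 on the minus strand (Cdk1).
Kif11: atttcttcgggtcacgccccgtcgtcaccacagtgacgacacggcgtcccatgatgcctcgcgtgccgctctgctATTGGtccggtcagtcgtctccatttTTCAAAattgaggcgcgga
Top2a: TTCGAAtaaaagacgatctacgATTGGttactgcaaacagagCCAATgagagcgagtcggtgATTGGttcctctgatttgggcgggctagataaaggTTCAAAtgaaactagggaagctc
Ncapg: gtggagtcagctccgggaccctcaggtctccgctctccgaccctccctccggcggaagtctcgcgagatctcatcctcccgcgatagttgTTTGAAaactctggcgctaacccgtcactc
Cdk1: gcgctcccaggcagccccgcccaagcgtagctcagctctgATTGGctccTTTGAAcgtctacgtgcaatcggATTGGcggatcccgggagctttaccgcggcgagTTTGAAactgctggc

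In 3 more members the CHR lay just after the start, and 30 bases around it are shown. They lie at chr9:83834684-83834713 on the plus strand (Ttk), chr15:99651634-99651663 on the minus strand (Racgap1) and chrX:100626072-100626101 on the plus strand (Kif4).
Ttk: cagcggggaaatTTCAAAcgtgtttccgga
Racgap1: ctggtgcgtgatTTTGAAccggatctggcg
Kif4: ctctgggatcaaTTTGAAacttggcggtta

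The mitosis genes were higher on average after PCN, but none passed the test. The log2 fold change of PCN against vehicle was positive in 46 of the 47, where 51.6% of all genes tested were positive. Its median was 0.48 over the mitosis genes and 0.0085 over all genes tested. No mitosis gene had an adjusted p under 0.05 by edgeR, the lowest being 0.43 for Mybl2, and none did by DESeq2, the lowest being 0.19 for Kif11. Over all genes DESeq2 called 1.03% in the higher and 0.259% in the lower direction. With an unadjusted p under 0.05, edgeR counted 4 mitosis genes higher and 0 lower, against 6.25% of all genes higher and 3.73% lower. DESeq2 counted 9 higher at that level, against 5.94% of all genes. The 4 genes by edgeR were Mybl2, Kif11, Nuf2 and Top2a. Every PCN library lay above every vehicle library in 2 mitosis genes, Mybl2 and Plk1, where 8.69% of all genes tested did so, and below them in 0, where 7.39% did so.

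**Figure D1:**
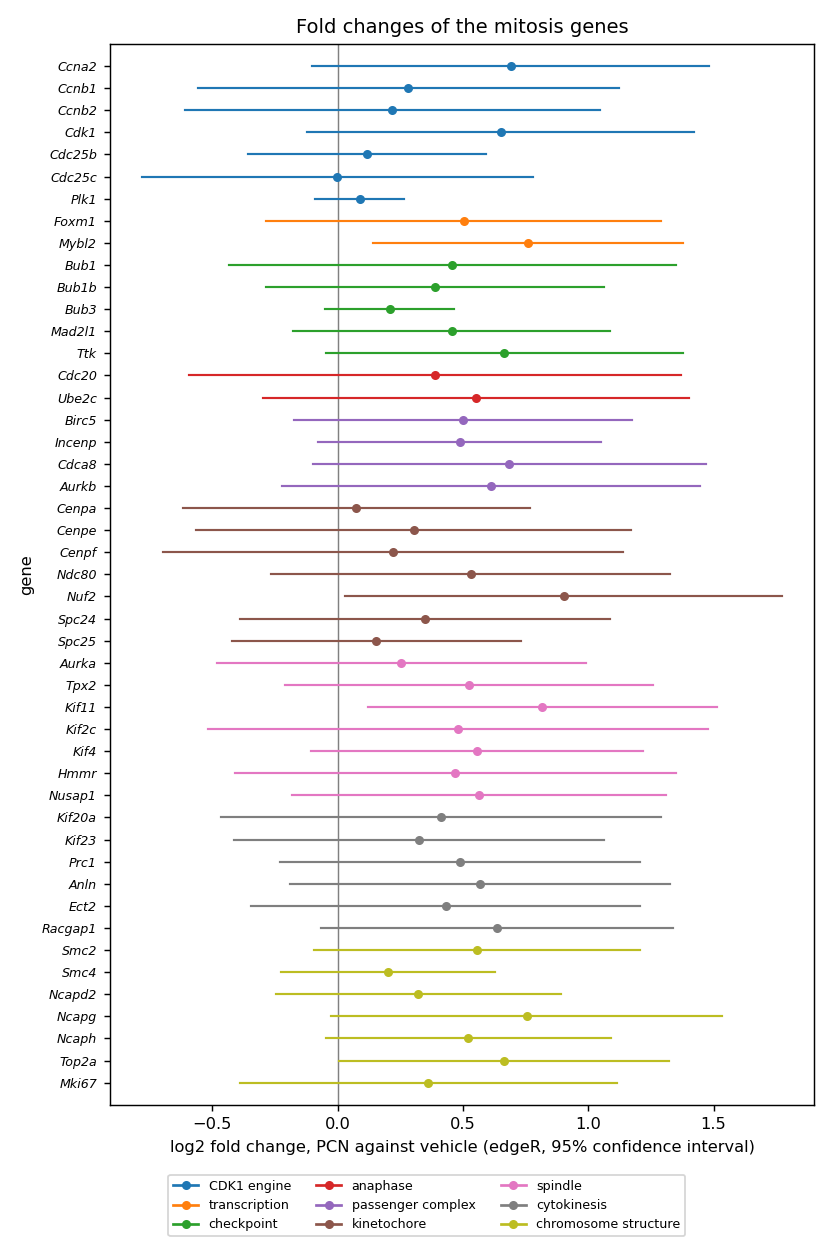
Log2 fold change of PCN against vehicle for each of the 47 mitosis genes (horizontal axis), with the 95% confidence interval of the edgeR fit as a line and colour for the role group. All points but Cdc25c lie above 0, and the intervals of all but Mybl2, Nuf2, Kif11 and Top2a reach below 0.

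The spread within the PCN group was the main feature of these genes. The summed level of the 47 genes was 1052, 945 and 780 CPM in vehicle replicates 3, 5 and 6. It was 1396, 754 and 1484 CPM in PCN replicates 4, 5 and 6. PCN replicates 4 and 6 were thus the highest libraries and PCN replicate 5 the lowest of the 6, and the groups overlapped. The group means were 925 ± 137 CPM (SD, n = 3) for vehicle and 1211 ± 399 CPM (SD, n = 3) for PCN, a ratio of 1.31.

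Single genes followed this order of libraries. PCN replicates 4 and 6 were the 2 highest libraries in 45 of the 47 genes, and Cdc25c and Plk1 were the exceptions. Over all genes tested, 8.27% showed that order, and 43 of 48 genes of DNA replication, described further on, showed it too. PCN replicate 5 was the lowest library in 30 of the 47, against 13.7% of all genes, and both held in 29, against 1.21%. These orders were counted after the values had been seen and are given as a description. The level in PCN replicate 4 was 0.988 times (Plk1) to 3.15 times (Cdc20) that in PCN replicate 5, with a median of 2.23. In PCN replicate 5, 43 genes were below the vehicle mean, and Mybl2, Plk1, Ttk and Ncaph were above it. In PCN replicate 6 all 47 were above the vehicle mean, by 1.11 times (Plk1) to 2.504 times (Nuf2). The vehicle libraries also differed, replicate 3 being above replicate 6 in 44 of the 47, with a median ratio of 1.503.

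**Figure D2:**
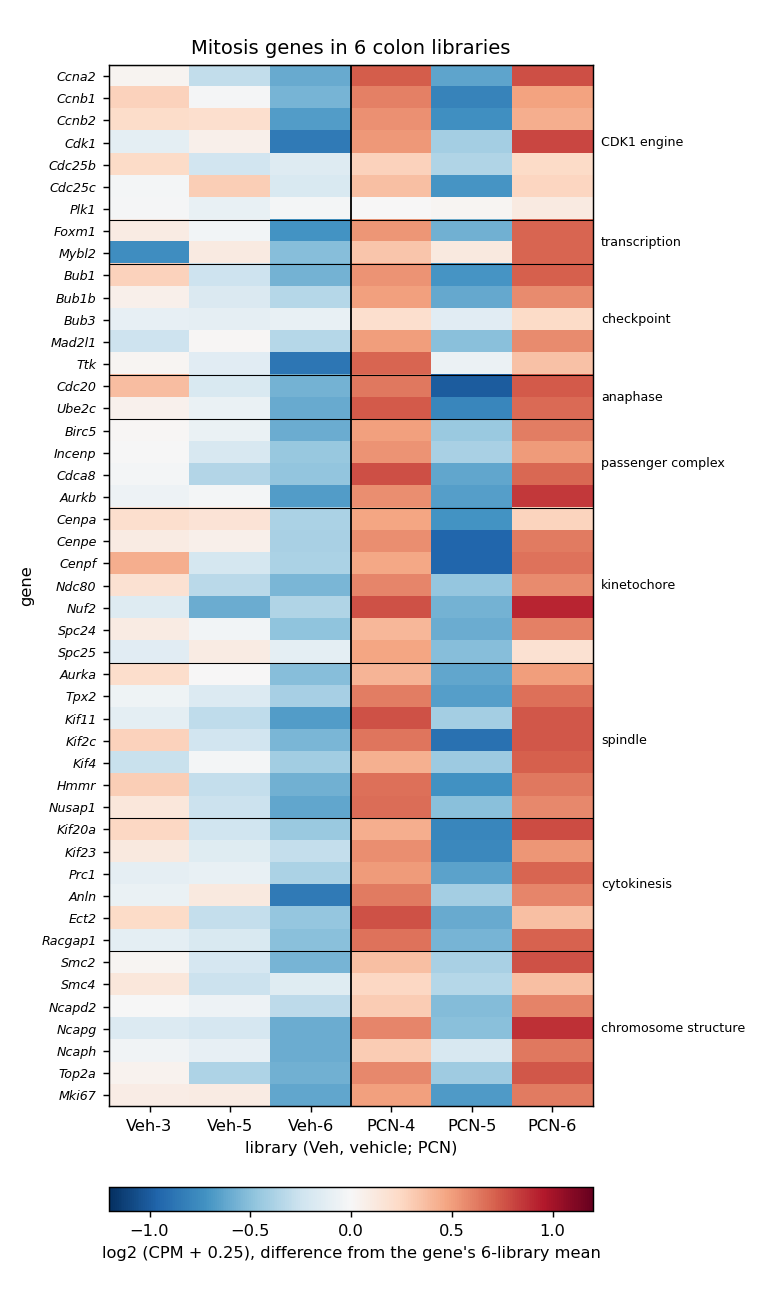
Level of the 47 mitosis genes (rows, grouped by role) in the 6 libraries (columns), as the difference of log2 (CPM + 0.25) from the mean of the 6 libraries for that gene. PCN replicates 4 and 6 are red in nearly all rows, PCN replicate 5 and vehicle replicate 6 are blue in most, and Plk1 is close to white in all 6.

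The call at an unadjusted p depended on single libraries. Without PCN replicate 5, 39 of the 47 mitosis genes were higher at an unadjusted p under 0.05, against 5.05% of all genes, and the median log2 fold change was 0.77. None of the 47 reached that level without PCN replicate 6 or without vehicle replicate 6, where 6.37% and 3.92% of all genes did. Without PCN replicate 4 there was 1, against 4.91%, and without vehicle replicate 5 there was 1, against 6.05%. Without vehicle replicate 3 there were 3, against 7.49%. In each of these fits no mitosis gene passed the adjusted test, and the median log2 fold change stayed above 0, between 0.25 and 0.77.

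**Figure D3:**
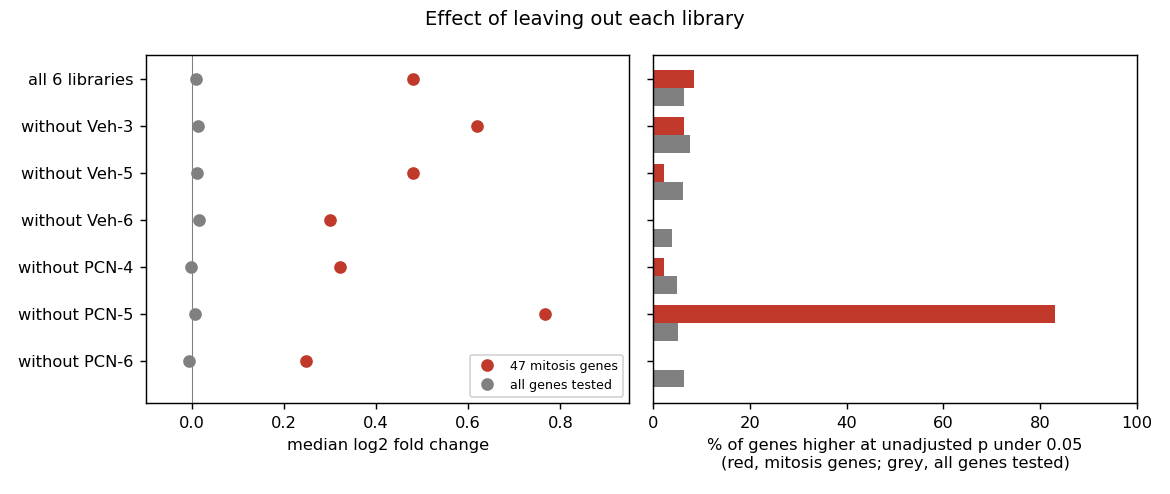
Left, median log2 fold change of the 47 mitosis genes (red) and of all genes tested (grey) with all 6 libraries and with each library left out. Right, the share of genes higher at an unadjusted p under 0.05 in the same fits. The red bar is long only without PCN replicate 5, where 39 of 47 genes reached that level, and the red median stays above the grey in each fit.

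The values of each gene are given below in CPM, with vehicle replicates 3, 5 and 6 first and PCN replicates 4, 5 and 6 after them. Fold changes are log2 values from edgeR with their standard error (SE), and the adjusted p-values are from the same test over 16586 genes.

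Among the 7 genes of the CDK1 engine, the median log2 fold change was 0.22. Cdk1 encodes the kinase that drives entry into mitosis. It was at 13.5, 15.3 and 8.04 CPM in vehicle and 21.1, 10.98 and 25.7 CPM after PCN. PCN replicate 5 lay among the vehicle libraries, and the log2 fold change was 0.65 (SE 0.34, adjusted p = 0.54). Ccna2 encodes cyclin A, which serves both DNA replication and mitotic entry. It was at 29.6, 23.4 and 18.8 CPM in vehicle and 47.8, 18.5 and 49.4 CPM after PCN, so that PCN replicates 4 and 6 were above all vehicle libraries and replicate 5 below them. The mitotic cyclins Ccnb1 and Ccnb2 were lowest in PCN replicate 5, at 8.05 and 8.75 CPM. Their highest levels were 21.7 and 21.6 CPM, in PCN replicate 4. Cdc25b and Cdc25c encode phosphatases that activate CDK1. Cdc25c was the 1 mitosis gene with a fold change below 0, at 3.55, 4.49 and 3.14 CPM in vehicle and 4.70, 2.11 and 4.36 CPM after PCN. Its means were alike, 3.73 ± 0.70 and 3.72 ± 1.41 CPM (SD, n = 3 each), and it had the fewest counts of the 47, down to 51 in a library. The sign of that fold change, −0.00085, turned under other settings.

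Plk1 stood apart from the other mitosis genes. It encodes a kinase of spindle assembly and mitotic exit, and it lies at chr7:122159439-122169873 on the plus strand (GRCm38). Plk1 was at 144, 137 and 144 CPM in vehicle and 147, 148 and 158 CPM after PCN. The groups did not overlap, yet the highest library was only 1.15 times the lowest, the smallest such ratio of the 47, whose median was 2.53. The log2 fold change was 0.09 (SE 0.08, adjusted p = 0.72). The exact 2-sided permutation p over the 6 libraries was 0.1, the smallest that 3 against 3 allows. Any gene without overlap between the groups has that value, so it adds nothing to the lack of overlap. Its mean level per length was 66.5 FPKM (fragments per kilobase of gene, scaled to the size of the library), and the next were Smc4 at 11.2, Cdc20 at 10.6 and Ccnb2 at 10.1 FPKM. On the opposite strand, Ern2, a stress sensor of goblet cells, ends 19 bases from the annotated end of Plk1. Ern2 was at 127, 111 and 116 CPM in vehicle and 137, 133 and 129 CPM after PCN, with a mean of 42.3 FPKM. Both genes were thus high and varied little between libraries, and in both every PCN library was above every vehicle library, against 8.69% of all genes. The log2 fold change of Ern2 was 0.17 (SE 0.08, adjusted p = 0.53). Whether the counting used strand is not stated in the sources used here, and the part of Ern2 reads in the Plk1 count was not tested. Without Plk1 the median log2 fold change of the remaining 46 genes was also 0.48.

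**Figure D4:**
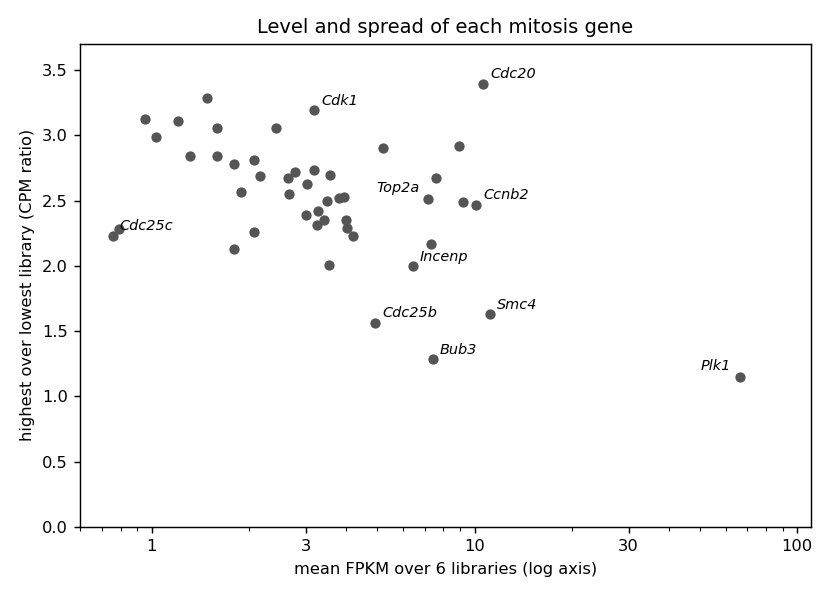
Mean FPKM over the 6 libraries (horizontal, log axis) against the ratio of the highest to the lowest library in CPM (vertical), with 1 point for each of the 47 mitosis genes. Plk1 lies alone at 66.5 FPKM and a ratio of 1.15, while the other genes reach up to 11.2 FPKM and Cdc20 has the highest ratio, 3.40.

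Of the transcription factors, both were higher on average, and Mybl2 had the smallest p of all mitosis genes. Mybl2 encodes B-MYB and lies at chr2:163054687-163084688 on the plus strand. It was at 5.32, 9.81 and 6.31 CPM in vehicle and 11.5, 9.87 and 14.95 CPM after PCN. The groups were separate by a narrow margin, between vehicle replicate 5 and PCN replicate 5, and the log2 fold change was 0.76 (SE 0.27, adjusted p = 0.43). The exact 2-sided permutation p was 0.1, which again only restates the lack of overlap. In Mybl2, PCN replicate 5 was 1.38 times the vehicle mean, the highest such ratio among the 47. Foxm1, the other factor, was at 16.1, 14.7 and 9.02 CPM in vehicle and 21.8, 9.99 and 24.5 CPM after PCN, with PCN replicate 5 among the vehicle libraries. The 5 core subunits of MuvB, to which B-MYB binds, had log2 fold changes around a median of 0.02, with 3 of 5 positive and none past an unadjusted p of 0.05. The values of Lin9, Lin52 and Rbbp4 were −0.25, −0.21 and 0.11.

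The spindle checkpoint, which holds anaphase until each kinetochore is attached, had 5 genes with a median of 0.46 for the log2 fold change. Ttk encodes the kinase MPS1 at the top of the checkpoint. It was at 5.73, 5.11 and 2.98 CPM in vehicle and 9.28, 5.37 and 7.24 CPM after PCN, with PCN replicate 5 between vehicle replicates 3 and 5. Bub3 encodes a checkpoint adaptor, and it varied little between libraries. It was at 48.2, 47.98 and 48.7 CPM in vehicle and 59.5, 47.2 and 60.7 CPM after PCN, so the vehicle libraries were close together while PCN replicates 4 and 6 were above them. The log2 fold change of Bub3 was 0.21 (SE 0.11, adjusted p = 0.56). The Bub1, Bub1b and Mad2l1 values were lowest in PCN replicate 5, at 4.38, 10.7 and 10.2 CPM.

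Both genes of the anaphase machinery had PCN replicate 5 as the lowest library. Cdc20 encodes the activator that brings substrates to the APC/C. It was at 23.6, 15.99 and 12.2 CPM in vehicle and 28.2, 8.96 and 30.4 CPM after PCN. Its ratio of 3.40 between the highest and the lowest library was the largest of the 47, and both ends of that range were PCN libraries. The log2 fold change was 0.39 (SE 0.43, adjusted p = 0.78). Ube2c encodes the ubiquitin-conjugating enzyme of the APC/C, and was at 22.4, 20.4 and 14.2 CPM in vehicle and 36.3, 12.4 and 34.7 CPM after PCN. Among the 16 subunits of the APC/C itself, PCN replicates 4 and 6 were the 2 highest libraries in 5, against 8.27% of all genes, and PCN replicate 5 was the lowest in 7, against 13.7%. Both held in 2, against 1.21%. The differences between libraries were small, the median of centred log2 levels being −0.11 in PCN replicate 5 and −0.04 to 0.08 in the others. Their summed level was 800 to 854 CPM in vehicle and 769 to 829 CPM after PCN, and 7 of the 16 had a positive log2 fold change, around a median of −0.03. At an unadjusted p under 0.05 none was higher and 1 was lower, against 3.73% of all genes, namely Anapc16, with a log2 fold change of −0.35 (adjusted p = 0.47). Anapc7 and Cdc16 followed with −0.19 and 0.16.

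In the chromosomal passenger complex, which corrects attachments of chromosomes to the spindle, log2 fold changes of the 4 genes lay around a median of 0.56. Cdca8 encodes borealin. It was at 12.5, 9.97 and 9.14 CPM in vehicle and 21.9, 8.21 and 20.8 CPM after PCN, with PCN replicate 5 the lowest of the 6. Incenp, the scaffold of the complex, was at 26.8, 23.5 and 19.6 CPM in vehicle and 39.1, 20.4 and 38.4 CPM after PCN. There PCN replicate 5 lay above vehicle replicate 6. Aurkb, the kinase, and Birc5, or survivin, had their highest level in PCN replicate 6, at 25.7 and 20.0 CPM, and were also above vehicle replicate 6 in PCN replicate 5.

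The 7 kinetochore and centromere genes, whose median was 0.30, held both the largest change of the 47 and one of the smallest. Nuf2 encodes a subunit of the NDC80 complex, which holds microtubules, and lies at chr1:169497934-169531464 on the minus strand. It was at 5.32, 3.83 and 4.55 CPM in vehicle and 10.2, 3.92 and 11.4 CPM after PCN. PCN replicates 4 and 6 were each at more than any vehicle library while replicate 5 lay near the lowest, and the log2 fold change was 0.90 (SE 0.38, adjusted p = 0.48). Its partner Ndc80 was at 5.55, 3.83 and 3.26 CPM in vehicle and 7.43, 3.47 and 7.33 CPM after PCN. The other 2 subunits, Spc24 and Spc25, had smaller log2 fold changes, 0.35 and 0.15. Cenpf, a large kinetochore protein, was at 18.5, 11.8 and 10.4 CPM in vehicle and 18.9, 6.94 and 21.7 CPM after PCN. In it PCN replicate 5 was 0.510 times the vehicle mean, the lowest such ratio of the 47, and the log2 fold change of 0.22 became −0.09 without PCN replicate 6. Cenpa, the histone H3 variant that marks centromeres, had a log2 fold change of 0.07, with 21.1, 20.5 and 14.0 CPM in vehicle and 25.5, 11.02 and 22.1 CPM after PCN.

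For the 7 spindle genes the median was 0.52, and in each of them PCN replicates 4 and 6 were the 2 highest libraries. Kif11 encodes the kinesin Eg5, which pushes the spindle poles apart, and lies at chr19:37376403-37421859 on the plus strand. It was at 20.4, 17.8 and 13.8 CPM in vehicle and 37.8, 16.6 and 37.2 CPM after PCN. PCN replicate 5 lay among the vehicle libraries, and the log2 fold change was 0.82 (SE 0.30, adjusted p = 0.45). Kif4, a chromosome-bound kinesin, was at 9.05, 10.8 and 8.16 CPM in vehicle and 14.9, 8.05 and 18.2 CPM after PCN, with replicate 5 just below all vehicle libraries. The range between libraries was wide in Kif2c, which depolymerises microtubules, from 3.10 CPM in PCN replicate 5 to 10.2 CPM in PCN replicate 6. The log2 fold changes of Tpx2, Hmmr, Nusap1 and Aurka, which serve spindle assembly, were 0.52, 0.47, 0.56 and 0.25.

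Cytokinesis was represented by 6 genes, and their median was 0.46. Racgap1 and Kif23 encode the partners of centralspindlin, which marks the plane of cleavage. Racgap1 was at 20.2, 19.2 and 15.3 CPM in vehicle and 34.4, 14.8 and 35.9 CPM after PCN, with replicate 5 the lowest of the 6. Anln encodes anillin of the contractile ring. It was at 12.9, 14.8 and 7.45 CPM in vehicle and 21.2, 10.2 and 20.6 CPM after PCN, where replicate 5 lay above vehicle replicate 6. Neither passed the test, with log2 fold changes of 0.64 (SE 0.31, adjusted p = 0.52) for Racgap1 and 0.57 (SE 0.33, adjusted p = 0.59) for Anln. Kif20a, Kif23, Prc1 and Ect2 had PCN replicate 5 as the lowest library and log2 fold changes of 0.33 to 0.49.

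Chromosome structure was represented by 7 genes, with 0.52 as the median of the log2 fold change. Top2a encodes topoisomerase II alpha, which untangles DNA before chromosomes separate, and lies at chr11:98992943-99024189 on the minus strand. It was at 63.0, 47.4 and 41.1 CPM in vehicle and 91.3, 45.5 and 103 CPM after PCN. PCN replicate 5 lay among the vehicle libraries, and the log2 fold change was 0.66 (SE 0.29, adjusted p = 0.50). Mki67 encodes Ki-67, a coat of mitotic chromosomes and the usual marker of dividing cells. It was at 93.5, 94.4 and 57.1 CPM in vehicle and 124, 54.8 and 136 CPM after PCN, the highest and the lowest library both being in the PCN group. Its log2 fold change of 0.36 (SE 0.33, adjusted p = 0.73) was below the median of the 47. The remaining 5 genes encode subunits of condensin, the ring that compacts chromosomes. Ncapg was at 7.68, 7.50 and 5.65 CPM in vehicle and 13.1, 6.03 and 16.1 CPM after PCN, with a log2 fold change of 0.75 (SE 0.34, adjusted p = 0.50). Smc4, the most abundant of them per length, had a smaller range, at 62.9, 47.9 and 51.7 CPM in vehicle and 68.0, 45.2 and 73.7 CPM after PCN.

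The 80 other mitosis genes, not among the 47, also had PCN replicates 4 and 6 as their highest libraries in most cases. The log2 fold change was positive in 72 of 80, around a median of 0.38. At an unadjusted p under 0.05, 5 of the 80 were higher and none lower, where 6.25% and 3.73% of all genes were, and neither edgeR nor DESeq2 called any. Of these 80, 40 were higher at that level without PCN replicate 5, against 5.05% of all genes, and 11 without vehicle replicate 3, against 7.49%. There were 3 without vehicle replicate 5 and 3 without PCN replicate 4, against 6.05% and 4.91%, 2 without vehicle replicate 6, against 3.92%, and 1 without PCN replicate 6, against 6.37%. PCN replicates 4 and 6 were the 2 highest libraries in 57 of the 80 and PCN replicate 5 the lowest in 34. Every PCN library was above every vehicle library in 4 of the 80, where 8.69% of all genes were so. Of these, Ncapg2, a subunit of condensin II, was at 12.8, 11.3 and 11.5 CPM in vehicle and 20.5, 14.0 and 25.2 CPM after PCN. Cdc25a, a phosphatase of the CDKs, was at 70.8, 63.6 and 67.6 CPM in vehicle and 75.1, 79.3 and 81.2 CPM after PCN. Lmnb1, the lamin of the nuclear envelope, overlapped between groups through PCN replicate 5, which was at 35.5 CPM while vehicle replicate 3 was at 38.6 CPM.

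In the genes of DNA replication, PCN replicates 4 and 6 were again the 2 highest libraries, in 43 of 48. These 48 genes encode the helicase, polymerases and loading factors of S phase. The log2 fold change was positive in 46 of 48, around a median of 0.56, and at an unadjusted p under 0.05 there were 29 higher genes and no lower one, against 6.25% and 3.73% of all genes. None passed the adjusted edgeR test, while DESeq2 called 13 higher, against 1.03% of all genes. Every PCN library was above every vehicle library in 27 of the 48, against 2 of the 47 mitosis genes and 8.69% of all genes. PCN replicate 5 was the lowest library in 5 of the 48, against 13.7% of all genes. Mcm2, a subunit of the helicase, was at 19.1, 19.5 and 16.7 CPM in vehicle and 33.8, 33.3 and 33.3 CPM after PCN, so that replicate 5 equalled the others. Mcm3, of the same helicase, was at 14.3, 14.4 and 12.00 CPM in vehicle and 31.8, 26.1 and 36.00 CPM after PCN. Uhrf1, which couples DNA methylation to replication, was at 16.5, 12.9 and 11.2 CPM in vehicle and 37.2, 27.9 and 42.1 CPM after PCN. Leaving out each library in turn, 21 to 37 replication genes were higher at an unadjusted p under 0.05, where 3.92 to 7.49% of all genes were.

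The ratio of mitosis to replication genes was lowest in PCN replicate 5. The summed CPM of the 47 mitosis genes was 1.24, 1.15 and 1.06 times that of the 48 replication genes in vehicle. It was 1.16, 0.777 and 1.12 times in PCN replicates 4, 5 and 6. The other 2 PCN libraries were within the vehicle range. The difference between the lists was not tested.

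**Figure D5:**
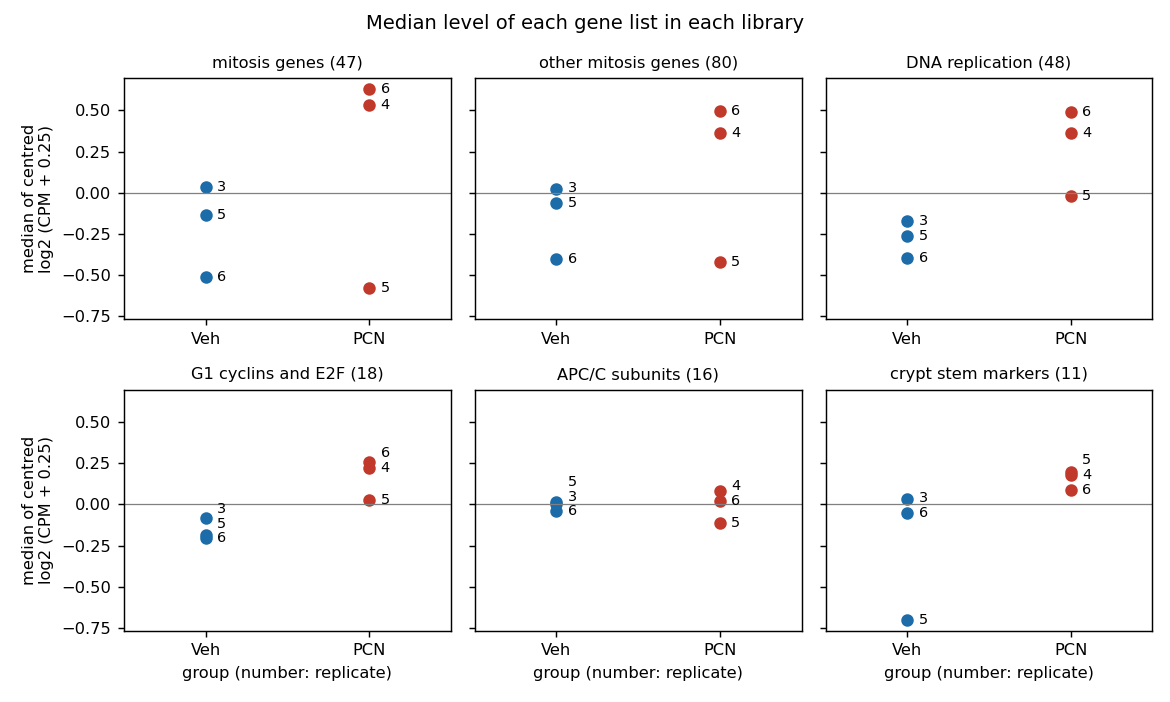
Median over each list of log2 (CPM + 0.25) minus the mean of the 6 libraries for each gene, in the vehicle and the PCN libraries (numbers give the replicate). For the 47 mitosis genes PCN replicate 5 lies lowest, at −0.58, and the groups overlap, while for the 48 DNA replication genes it lies at −0.02, above the 3 vehicle libraries.

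Genes that act before S phase were higher on average after PCN. Among the 18 G1 cyclins and E2F factors the median log2 fold change was 0.36. At an unadjusted p under 0.05 there were 9 higher genes and 1 lower, where 6.25% and 3.73% of all genes were, and every PCN library was above every vehicle library in 9, against 8.69%. Without PCN replicate 6 the higher genes were 5, against 6.37%. Ccne1 encodes cyclin E, which starts S phase. It was at 4.41, 4.62 and 3.69 CPM in vehicle and 7.35, 7.10 and 10.04 CPM after PCN. DESeq2 called it higher (adjusted p = 0.020) and edgeR did not (adjusted p = 0.28). Likewise DESeq2 alone called E2f2 and Ccnd1, the cyclin D1 gene, with log2 fold changes of 0.84 and 0.79 by edgeR. The brakes of the cell cycle had no common direction, the median being −0.03 over the 16 tested of 17 listed, with 2 lower genes at an unadjusted p under 0.05, against 3.73% of all genes. Cdkn1a, the CDK inhibitor p21, was at 196, 349 and 228 CPM in vehicle and 183, 160 and 171 CPM after PCN, lowest in PCN replicate 5. Its groups did not overlap, with a log2 fold change of −0.59 (SE 0.20, adjusted p = 0.41). Rbl2, a pocket protein, and Cdkn2d, a CDK inhibitor, had log2 fold changes of −0.32 and −0.30 and did not overlap either. Every PCN library was thus below every vehicle library in 3 of the 16, against 7.39% of all genes.

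Markers of cell types were compared because dividing cells of the colon are not only epithelial. The 10 epithelial markers summed to 11261 to 12116 CPM in vehicle and to 12390, 11236 and 10534 CPM in PCN replicates 4, 5 and 6. Crypt stem markers, 11 genes with Lgr5 among them, summed to 1032 to 1262 CPM in vehicle, and to 1294, 1459 and 1486 CPM in PCN replicates 4, 5 and 6. Prom1 and Slc12a2 made up most of that sum. In 4 of the 11 every PCN library was above every vehicle library, against 8.69% of all genes. Lgr5 itself was at 15.1, 4.74 and 10.9 CPM in vehicle and 12.5, 12.6 and 14.4 CPM after PCN, with overlap. In the sum of epithelial markers PCN replicates 5 and 6 were below all vehicle libraries. For PCN replicate 5 the margin was narrow, the lowest vehicle library being at 11261 CPM. Every PCN library was below every vehicle library in 1 of the 10, Lgals4, against 7.39% of all genes. Lgals4 was at 2972, 3492 and 3417 CPM in vehicle and 2382, 2825 and 2700 CPM after PCN. PCN replicate 6, high in mitosis genes, had the lowest epithelial sum. The 7 B cell markers summed to 6.68 to 18.7 CPM in vehicle and to 9.36, 58.4 and 12.9 CPM in PCN replicates 4, 5 and 6. PCN replicate 5 was thus the highest library. The 5 plasma cell markers were also highest in that library, at 1440 CPM, against 399 to 1017 CPM in the others. The 6 germinal centre markers, of B cells that divide, summed to 32.2 to 42.5 CPM in vehicle and 29.2 to 42.4 CPM after PCN. T cell markers, 7 genes, were highest in PCN replicate 5 as well, at 25.7 CPM, against 8.45 to 21.1 CPM in the others. Goblet cell markers, 7 genes, summed to 22148 to 26778 CPM in vehicle and to 41490, 33315 and 29243 CPM in PCN replicates 4, 5 and 6. Most of that sum was Muc2. Every PCN library was above every vehicle library in 2 of the 7, against 8.69% of all genes. DESeq2 called 2 of the 7 higher, against 1.03% of all genes. The 6 fibroblast markers summed to 944 to 1184 CPM in vehicle and 1261 to 1701 CPM after PCN. In 2 of the 6 every PCN library was above every vehicle library, against 8.69% of all genes. Dcn was at 271 to 312 CPM in vehicle and 244 to 277 CPM after PCN. The posterior Hox genes, which mark position along the gut, ranged from 17.2 to 70.6 CPM in sum over the 6 libraries, PCN replicate 5 being at 34.4 CPM. The 6 smooth muscle markers ranged from 1341 CPM in PCN replicate 6 to 4591 CPM in PCN replicate 4, which were both high in mitosis genes. The part of these differences in the mitosis values was not tested.

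Some mitosis genes share part of their place in the genome with a neighbour. Of the 47, 12 overlap another protein-coding gene of the table in GENCODE M21, 11 of them on the opposite strand only, where reads cannot be told apart without strand. They include Cdc20, whose neighbour Elovl1, a fatty acid elongase, was at 34.8 FPKM on average. On chromosome 4, Elovl1 ends at position 118432953 and Cdc20 spans 118432901 to 118437352. Elovl1 was at 95.8, 108 and 90.0 CPM in vehicle and 91.2, 88.8 and 95.4 CPM after PCN. Also among the 12 is Ccna2, whose neighbour Exosc9, an exosome subunit, was at 5.27 FPKM. The part of neighbours' reads in these counts was not tested.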

How the data were processed

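The labels describe RNA from mouse colon in 6 libraries. Per the supplementary methods, the authors removed adapters and poor reads, mapped with STAR and counted with HTSeq; the deposited counts per gene are not normalized. The labels name mm10 and the methods a pig assembly, while the identifiers are mouse Ensembl genes. Library preparation is described differently in labels and methods. The FPKM values deposited by the authors were used for levels per length and as an alternative. The deposited log2 fold changes and p-values of the authors' own comparison were not used. The mitosis genes, the other lists and the tests were chosen with earlier results of these data known.

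Counts were tested with edgeR 4.0.16 (R 4.3.3): filterByExpr (minimum count 10, minimum total 15), TMM scaling, then glmQLFit with glmQLFTest, and p-values adjusted by Benjamini-Hochberg across 16586 genes at 0.05. The common biological coefficient of variation was 0.199. Alternatives were DESeq2 1.42.0, limma 3.58.1 on log2(FPKM + 1) and log2(FPKM + 0.1), edgeR with adjusted deviances, RLE scaling, library totals only, no filter, a replicate block, and each library left out. Totals were 21924026 to 25422856 counts, and the least abundant mitosis gene had 51 counts in its lowest library. The test was also run on simulated counts, drawn independently for each gene. They do not hold genes that move together across libraries, as the mitosis genes did.

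Genes were named by rule: members that passed, the 2 with the smallest p in each of 9 role groups, and those below 0. Also named were the 3 highest and 3 lowest by FPKM, Cdk1 and Mki67, and up to 3 genes of each other list by p. Cyp2c55, B3galt5 and Akr1b7 were named to describe the PXR response (3 of the 8 genes listed for it). Other members were added after their values were seen, with Ern2, Elovl1 and Exosc9. Positions come from GENCODE M21 (GRCm38), where all 47 Ensembl identifiers were found; the deposited positions were the same for 1 and were not used. Promoters are from RefSeq, GRCm38.p6. In 31 of 38 genes the bases after the start lay in a GENCODE transcript of that gene. The results of a few items are not reported here.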

Additional observations from a re-analysis of the deposited data

How the results depend on the processing

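No mitosis gene passed the adjusted threshold under any of the 14 alternatives. The number of all genes called was 6 and became 214 with DESeq2, 3 with library totals only, 27 with no filter and 0 to 24 when a library was left out. The number of mitosis genes higher at an unadjusted p under 0.05 was 4 and became 9 with DESeq2 (5.94% of all genes), 2 with library totals only (4.57%), 1 with limma on log2(FPKM + 1) (4.57%) and 1 on log2(FPKM + 0.1) (4.56%), and 0 to 39 when a library was left out. The highest of these was without PCN replicate 5 and the lowest without PCN replicate 6 or vehicle replicate 6. Groups share replicate numbers 5 and 6. Deviations from the group mean correlated at −0.15 and −0.09 between same-numbered libraries. With 3 libraries a group, such correlations cannot decide whether the numbers pair libraries. With the replicate block the calls were 74 genes and the mitosis genes at an unadjusted p under 0.05 were 1 (5.48% of all genes), and the replication genes 19. Replicate 3 is only in vehicle and replicate 4 only in PCN, so the contrast in that fit rests on replicates 5 and 6 alone. The median log2 fold change of the mitosis genes was 0.24 to 0.49 with no library left out, the replicate block included, and 0.25 to 0.77 with a library left out. Of 322 recomputed fold changes of the 23 named mitosis genes, 318 kept direction and side of the threshold. Most of the 23 were named for a small p in these data and none passed in any setting, so that count does not describe the other members. Of all 47, 46 had a positive log2 fold change in the main fit and 43 without PCN replicate 4. There were 44 without vehicle replicate 6, without PCN replicate 6 and with the replicate block. Cdc25c turned to 0.00057 with adjusted deviances, to 0.16 without vehicle replicate 5 and to 0.28 without PCN replicate 5, with a range of −0.20 to 0.28 over the libraries left out. Cenpf turned to −0.090 without PCN replicate 6, with a range up to 0.58. The cause was not tested. With 3 libraries a group, the median SE of a log2 fold change was 0.32, which limits what could be called among genes whose libraries differ by a median of 2.53 times.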
